A study of Mus musculus with 2 samples.

Results

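The most densely called gene-poor stretches were described from a base-resolution map of 5-formylcytosine (5fC) from mouse embryonic stem cells. They cover 7 windows of 10 kb on 4 chromosomes and held 441 of the 28569 cytosines listed in replicate 1 and 355 of the 29650 listed in replicate 2, which is 605 of 46677 cytosines listed in either. The loci are chr9:3000000-3039999, chr2:98660000-98669999, chr14:19410000-19419999 and chr15:75080000-75089999, in mm10 coordinates. They were chosen by measured values, the number of called cytosines per window and the read depth there in both libraries, and as gene-poor. These 3 properties are therefore given as descriptions with no test.

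5fC is made when TET enzymes oxidise 5-methylcytosine, and the glycosylase TDG can excise it so that an unmodified cytosine is put back. In the assay, CLED-seq, 5fC in sheared genomic DNA was labelled with biotin and captured on streptavidin beads. The deaminase A3A then converted unprotected cytosines, so a cytosine that is still read as C is a candidate 5fC. The 2 libraries, replicates 1 and 2, form 1 group of embryonic stem cells, with no strain, line name or control library among the samples, and the labels do not tell whether they came from separate cultures.

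Gene-poor stretches of the mouse genome include the tandem satellite repeats beside the centromeres, which are rich in 5-methylcytosine and packed as heterochromatin. Only a small part of such arrays is placed in the assembled chromosomes, and reads from near-identical copies are hard to assign to one copy. A repeat annotation was not used here, and the sources used here do not give how reads that match several copies were placed. Sequence at the loci was known only through the 3-base context deposited with each called cytosine.

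The context letters of neighbouring cytosines were joined to show the bases around the calls. They gave 1586 bases of the 4 loci, and 223 of these were given by more than 1 cytosine, with 0 conflicts. Contexts taken from 1 reference sequence cannot conflict, so this is no check on the bases of the reads. The stretches below run 5′ to 3′ on the plus strand. Capitals mark called cytosines, written as G where the call was on the minus strand, and n marks a base that no listed context covers. On chromosome 9, chr9:3032238-3032297 and the stretch that starts 234 bp further on, chr9:3032472-3032531, are set under each other because, of all such pairs of 60 bases there, they share the most known bases, 16 of the 17 known in both.
Chromosome 9, first stretch: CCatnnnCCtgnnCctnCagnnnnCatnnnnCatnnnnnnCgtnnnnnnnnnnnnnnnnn
Chromosome 9, second stretch: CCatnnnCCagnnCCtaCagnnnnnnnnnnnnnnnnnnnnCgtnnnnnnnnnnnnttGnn
On chromosome 14, chr14:19416908-19416967 and chr14:19417259-19417318 lie 351 bp apart and were picked in the same way, with 9 of the 9 bases known in both equal. In both pairs the count includes cytosines called in both stretches, which are equal by construction.
Chromosome 14, first stretch: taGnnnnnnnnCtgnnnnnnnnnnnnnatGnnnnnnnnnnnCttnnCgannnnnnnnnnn
Chromosome 14, second stretch: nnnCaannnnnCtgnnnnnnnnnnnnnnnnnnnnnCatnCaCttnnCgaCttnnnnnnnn
On chromosome 2, chr2:98666260-98666459 shows the densest 200 bases of that locus, with 18 calls on the plus strand and 19 on the minus strand.
Chromosome 2: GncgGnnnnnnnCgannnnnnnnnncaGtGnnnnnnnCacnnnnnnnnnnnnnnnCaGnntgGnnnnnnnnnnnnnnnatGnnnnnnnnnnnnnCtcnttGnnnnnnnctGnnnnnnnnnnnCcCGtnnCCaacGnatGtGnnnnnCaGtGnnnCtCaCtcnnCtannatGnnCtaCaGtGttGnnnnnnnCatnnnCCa
On chromosome 15, chr15:75086664-75086863 holds 51 of the 57 cytosines of its locus, 41 on the plus strand and 10 on the minus strand.
Chromosome 15: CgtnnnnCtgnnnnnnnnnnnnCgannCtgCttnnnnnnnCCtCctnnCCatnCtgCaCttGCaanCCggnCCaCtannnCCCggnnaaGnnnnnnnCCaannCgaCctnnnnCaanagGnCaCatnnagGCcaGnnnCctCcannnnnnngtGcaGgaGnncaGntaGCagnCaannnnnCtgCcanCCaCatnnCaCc

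The chromosome 9 locus held most of the calls, 301 in replicate 1 and 221 in replicate 2. Its 4 windows held 111, 35, 88 and 67 called cytosines in replicate 1, and 81, 24, 76 and 40 in replicate 2. The chromosome 2 locus held 37 and 45, the chromosome 14 locus 53 and 50, and the chromosome 15 locus 50 and 39. A 10 kb window with any call held a median of 1 called cytosine in both libraries. The 10 kb windows directly before and after each locus held 0 called cytosines in either library. Just inside the choice, the sparsest window, the second on chromosome 9, held 35 and 24 called cytosines. Just outside it, the 2 windows on chromosome 11 that start at 3130000 and 3140000 held 19 and 13 calls and 18 and 14 calls. A single window of the genome held more calls than any window of the loci, on chromosome 17 with 291 and 316.

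No protein-coding gene overlapped any of the 4 loci in the RefSeq annotation of GRCm38, the same build as mm10. The only gene of that annotation inside was Mir101c, a microRNA gene on chromosome 9 (3038669 to 3038743), and 0 called cytosines lay in it. The nearest call was 2592 bp away. On chromosome 9 the next protein-coding gene was Alkbh8, whose product modifies transfer RNA, 295232 bp beyond the locus. The chromosome 2 locus lay 1028328 bp from Lrrc4c, which encodes a ligand of netrin-G, and 2890780 bp from Iftap. The chromosome 14 locus lay 322236 bp from Gm41099 and 113701 bp from Gm2244, both annotated as protein-coding. The chromosome 15 locus was the nearest to genes, at 31080 bp from Ly6c1 and 18162 bp from Ly6c2, which encode Ly6C cell surface antigens. In RefSeq, the only annotation used, all 4 loci were thus free of protein-coding genes, and that on chromosome 15 lay between 2 of the Ly6 genes. Other annotations were not compared.

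The calls filled only parts of the windows. On chromosome 9 they ran over 36046 bp in replicate 1 and 36010 bp in replicate 2, beginning at position 3000032 in both. On chromosome 2 they ran over 4286 and 4230 bp, and on chromosome 14 over 3554 and 3581 bp. On chromosome 15 all calls lay within 279 bp in replicate 1 and 291 bp in replicate 2, in a window of 10000 bp. When calls were parted at gaps over 500 bp, chromosome 9 fell into 16 clusters in each library, chromosome 2 into 3 in each, chromosome 14 into 3 and 2, and chromosome 15 stayed whole. The chromosome 2 calls sat in 2 main clusters, with 13 calls in each library from position 98662229, and 23 and 31 calls near position 98666260.

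**Figure D1:**
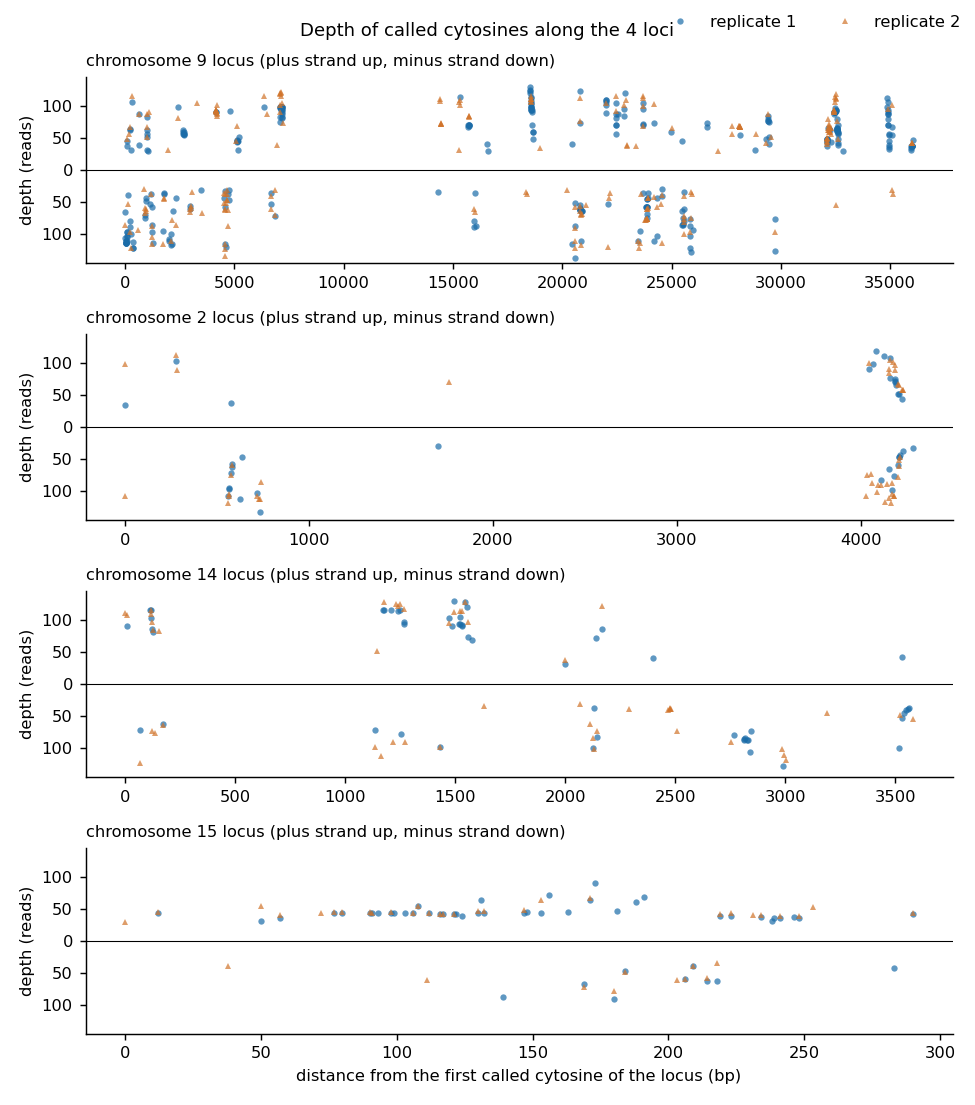
Depth in reads of each called cytosine (vertical axis, plus strand above 0 and minus strand below) against its distance in bp from the first called cytosine of its locus. Circles are replicate 1 and triangles replicate 2. Calls stand in narrow clusters on chromosomes 9, 2 and 14, while on chromosome 15 they fill a stretch of 279 and 291 bp, mostly on the plus strand at a depth near 43 reads.

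Median depth at the called cytosines was above that elsewhere at all 4 loci in both libraries. The median was 71 reads in replicate 1 and 70 in replicate 2 on chromosome 9 (quartiles 53 and 97, and 54 and 96). It was 71 and 90 reads on chromosome 2 and 88 and 93 on chromosome 14. Chromosome 15 was the shallowest, at 43 and 45 reads. Outside the loci the median was 34 reads in both, with quartiles of 31 and 38. The loci thus gave 3.08% and 2.48% of all reads summed over listed cytosines, from 1.54% and 1.20% of the cytosines. These sums cover called cytosines only and are not the depth of a library.

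The deposited counts have an upper edge that falls within the depth range of the loci. The number of reads that lost the C never went above 99 at any listed cytosine of either library, while the number that kept the C reached 112 and 126. Cytosines with 90 to 99 such reads numbered 44 in replicate 1 and 54 in replicate 2, and 40 and 50 of these lay in the 4 loci. The share was highest on chromosome 14, at 18.9% and 32.0% of its calls, against 0.0142% and 0.0137% outside the loci. On chromosome 15 it was 0 in both libraries. No source used here names this edge, and depths of the loci above it, together with the low levels that such depths would allow, are not seen in these files.

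The level, the share of reads at a cytosine that kept the C, was low at all 4 loci, with similar medians. Its median was 21.1% in replicate 1 and 20.4% in replicate 2 on chromosome 9. On chromosome 2 it was 21.1% and 19.3%, on chromosome 14 21.7% and 21.9%, and on chromosome 15 23.3% and 22.9%. Over all reads at listed calls the level was higher on chromosome 15, at 26.2% and 26.6%. It was 21.9% in both libraries on chromosome 9, 20.8% and 20.3% on chromosome 2, and 22.4% in both on chromosome 14. Outside the loci the median was 47.1% and 46.7%. Only 8 of 441 and 6 of 355 cytosines in the loci had a level of at least 50%, against 47.7% and 47.0% outside. No cytosine of the loci kept the C in every read, a state reached at 1135 of 28128 and 1158 of 29295 cytosines outside. This count is not matched for depth, whose median was 34 reads outside and 70 and 72 in the loci.

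Depth moves with this difference, because a deeper cytosine can be called at a lower level. The lowest level listed in both libraries was 23.3% at 30 reads, 20% at 50 reads and 14.5% at 110 reads. Levels were therefore set beside those of other cytosines of like depth. At 30 to 49 reads the median level in the loci was 23.1% (n = 125) and 23.5% (n = 87), against 47.2% and 46.8% outside. At 50 to 69 reads it was 20.8% and 21.2%, against 42.5% and 43.4%. At 70 to 89 reads it was 19.5% in both, against 37.8% and 36.2%. At 90 reads or more it was 19.8% (n = 147) and 18.8% (n = 126), against 33.5% (n = 40) and 31.1% (n = 64). The lower level was thus present in every depth range compared, in both libraries; neighbouring cytosines share reads, so no test was made.

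**Figure D2:**
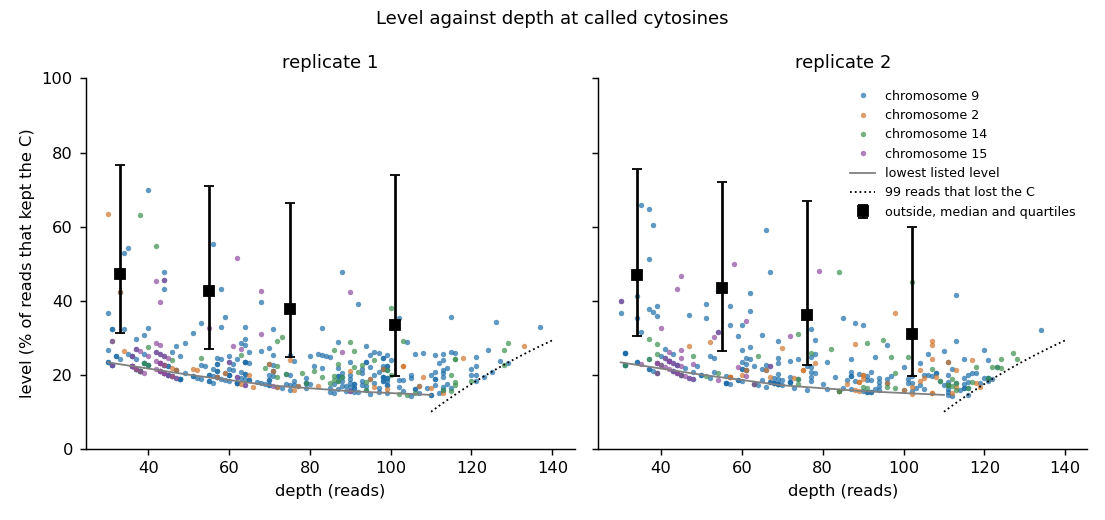
Level (percent of reads that kept the C) against depth (reads) for each called cytosine of the loci, coloured by chromosome, with 1 panel for each replicate. Squares with bars give the median and quartiles of cytosines outside the loci in 4 depth ranges, the grey line the lowest level listed at 30, 50, 70, 90 and 110 reads, and the dotted line the level at which 99 reads lost the C. Most points of the loci lie just above the grey line, and beyond about 115 reads they lie on or above the dotted line.

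Most calls in the loci stood close to the lowest level that could be listed. In replicate 1, 60.1% had at most 2 more C-keeping reads than the lowest count listed at the same depth (95% Wilson interval 55.5 to 64.6), and in replicate 2 58.9% (53.7 to 63.9). Outside the loci the shares were 22.7% and 23.3%. In replicate 1 the lowest locus was chromosome 14 at 47.2% and the highest chromosome 2 at 73.0%. In replicate 2 chromosome 14 was again the lowest at 54%, and chromosome 15 the highest at 69.2%. The deposited list therefore shows only the upper part of the levels at these loci, and uncalled cytosines there were not analysed here. Intervals cover counting error only, since PCR reads without molecular identifiers are not independent molecules.

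Calls at CG, the context in which mammalian DNA is mostly methylated, were more frequent in the loci than elsewhere in the list. CG made up 17.7% of the calls in replicate 1 (14.4 to 21.5) and 21.1% in replicate 2 (17.2 to 25.7), against 7.86% (7.55 to 8.18) and 8.05% (7.74 to 8.36) outside. Cytosines are not replicates, so no test was made. On chromosome 9 the share was 16.3% (12.5 to 20.9) and 23.5% (18.4 to 29.5), and on chromosome 14 34.0% (22.7 to 47.4) and 24% (14.3 to 37.4). On chromosome 15 it was 8% (3.15 to 18.8) and 12.8% (5.60 to 26.7), and on chromosome 2 18.9% (9.48 to 34.2) and 13.3% (6.26 to 26.2), so at chromosome 15 in both libraries and at chromosome 2 in replicate 2 the interval held the share outside. How many CG and other cytosines the loci contain is not known here, so these shares do not show a preference for CG.

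Levels by context were medians of listed calls, bounded from below by the lowest count that was listed. The median level at CG was 22.5% and 21.7%, at CHG (H is any base but G) 21.7% and 21.6%, and at CHH 21.1% and 20.4%. Single loci departed from this order: in replicate 2 the chromosome 14 medians were 24.5% at CG, 19.8% at CHG and 20.5% at CHH, and on chromosome 2 they were 16.9% at CG and 19.4% at CHH. These medians rest on 12, 8 and 30 calls on chromosome 14 and on 6 and 27 on chromosome 2. Their median depths also differed, at 96.5, 106 and 84 reads on chromosome 14 and 103.5 and 89 on chromosome 2. CHH calls were the most numerous at each locus. Their share in replicate 1 was lowest on chromosome 14 (54.7%) and highest on chromosome 15 (72%), and in replicate 2 it was lowest on chromosome 9 (57.9%) and highest on chromosome 15 (64.1%).

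The bases that follow the called cytosine were also given in other proportions than in the rest of the list, again with no test. Of the CG calls in the loci, A or T followed at 65 of 78 in replicate 1 and at 65 of 75 in replicate 2, which is 83.3% and 86.7%, with lower bounds of 73.5% and 77.2%. Outside the loci A or T followed at 39.3% and 39.1%. By locus, they followed at 43 of 49 and 48 of 52 CG calls on chromosome 9 and at 15 of 18 and 10 of 12 on chromosome 14. They followed at 5 of 7 and 4 of 6 on chromosome 2 and at 2 of 4 and 3 of 5 on chromosome 15, where the 95% intervals held the share outside. The context CAT made up 15.9% and 16.6% of calls in the loci, against 6.15% and 6.54% outside. On chromosome 15 CAT made up 6% and 5.13%, near the share outside. The context CCC was found at 1 of 441 and 2 of 355 calls in the loci, against 8.43% and 8.80% outside. On chromosome 9 it was at 0 of 301 calls in replicate 1, which allows a share of up to 1.26% (Wilson), and at 0 of 221 in replicate 2 (up to 1.71%). How often each context occurs in the loci is not known here, so these shares do not show a preference. The intervals also treat calls as independent, while calls on chromosome 9 recur at fixed distances, often with the same context.

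The strands held unequal numbers of calls on chromosome 15 and in single clusters of chromosomes 9 and 14. On chromosome 15, 41 of 50 calls in replicate 1 and 29 of 39 in replicate 2 lay on the plus strand, which is 82% (69.2 to 90.2) and 74.4% (58.9 to 85.4). On chromosome 9 the plus strand held 63.1% (57.5 to 68.4) and 55.7% (49.1 to 62.1). On chromosome 2 it held 43.2% and 35.6%, and on chromosome 14 56.6% and 42%, with intervals that reached across 50% at both in both libraries. Outside the loci it held 50.1% and 49.8%. Chromosome 9 had 12 clusters of at least 5 calls in replicate 1 and 13 in replicate 2, and in 9 and 7 of them at least 80% of calls lay on 1 strand. The cluster from position 3032120 had 40 of 40 calls on the plus strand in replicate 1 and 32 of 33 in replicate 2. The cluster from position 3025580 in replicate 2 had 9 of 9 on the minus strand. Among chromosome 14 clusters of at least 5 calls, 1 of 3 in replicate 1 reached 80% on 1 strand. In replicate 2 it was 0 of 2, and on chromosome 2 it was 0 of 2 in each library. Calls of 1 cluster and strand can come from the same fragments, so they are not independent.

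**Figure D3:**
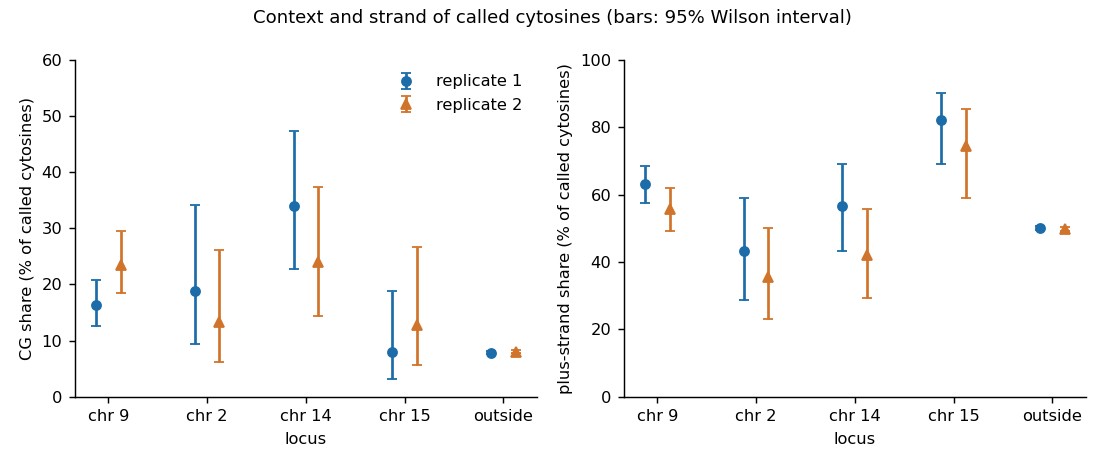
CG share (left) and plus-strand share (right) of called cytosines, in percent, at each locus and outside the loci. Circles are replicate 1, triangles replicate 2 and bars 95% Wilson intervals. The CG share is highest on chromosome 14 (34.0% and 24%), and the plus-strand share on chromosome 15 (82% and 74.4%).

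Few CpGs were called on both strands, although a CpG reads the same on each. In the loci this was so at 2 of the 76 CpGs with a call in replicate 1 and at 2 of 73 in the other library, which is 2.63% (0.725 to 9.10) and 2.74% (0.755 to 9.45), against 0.363% (0.184 to 0.715) and 0.341% (0.173 to 0.671) outside. In replicate 1 the CpG at chromosome 14 position 19419304 had a level of 54.8% on the plus strand (23 of 42 reads) and 24.5% on the minus strand (13 of 53 reads). That at chromosome 2 position 98662804 had 21.6% and 21.1%. In replicate 2 the CpG at chromosome 2 position 98666384 had 15.5% and 23.4%, and that at chromosome 9 position 3020846 had 21.4% and 19.6%. The CpGs called on both strands were different ones in each library. Whether the other strand was covered at the remaining CpGs is not known.

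Called cytosines in the loci stood a few bases apart. The median distance to the next call was 9 bp in replicate 1 and 16 bp in replicate 2 on chromosome 9, 8 and 4.5 bp on chromosome 2, 9.5 and 17 bp on chromosome 14, and 4 and 5 bp on chromosome 15. Of all calls in the loci, 95.7% and 94.1% had another within 100 bp, against 2.72% and 3.03% outside. Since the loci were chosen for their density, this is a description. Chromosome 15 was the most evenly filled, with a longest gap of 38 and 37 bp.

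On chromosome 9 the calls recurred at fixed distances. Among same-strand pairs of cytosines listed in either replicate, 36 pairs lay exactly 58 bp apart, 17 pairs 118 bp, 22 pairs 234 bp, 19 pairs 352 bp and 12 pairs 468 bp apart. Within replicate 1 alone these distances held 25, 8, 9, 13 and 8 pairs, and within replicate 2 alone 9, 7, 10, 9 and 1. The distance of 234 bp stood out most from its surroundings, with 6.42 times the mean of the distances within 20 bp of it. Only distances with at least 10 pairs entered this ranking. In replicate 1 alone, where 234 bp had 9 pairs and so did not enter, 352 bp had the highest ratio, and in replicate 2 alone 234 bp. The other distances listed above were not those with the next highest ratios. At 58, 118, 352 and 468 bp the ratio was 2.36, 2.71, 2.97 and 3.64. It was higher at 176 bp (3.71), 878 bp (4) and 935 bp (4.40). Pairs were also more numerous at short distances in general, with 26 pairs at 50 bp, of which 0 shared the 3-base context. The 3-base context does not enter the pair counts or the ratios. The distances of 118, 352 and 468 bp followed no stated rule, so the contexts at them are a description. The context was the same in 18 of the 36 pairs at 58 bp and in 7 of 17 at 118 bp. It was the same in 14 of 22 at 234 bp, 15 of 19 at 352 bp and 10 of 12 at 468 bp. At 176, 878 and 935 bp the context was the same in 6 of 13, 9 of 12 and 7 of 10 pairs. At 117 bp, with as many pairs as 118 bp and a ratio of 2.66, it was the same in 2 of 17. Over all pairs up to 1000 bp apart it was the same in 11.6%.

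The bases known from the contexts were also compared at each distance. They hold the contexts just counted, and 2 called cytosines at a distance are equal by construction, so they are a description only. On chromosome 9, 70 of 84 known bases (83.3%) equalled the base 234 bp further on, against a median of 26.2% over the 639 distances with at least 30 known bases. Without the bases called at both ends, a step added after the values were seen, 48 of 62 (77.4%) were equal, against a median of 19.1%. Counted in this way, 53.1% were equal at 352 bp and 45.8% at 58 bp. The chromosome 9 pair of stretches printed above shows 1 such case. On chromosome 14 the distance was 351 bp, with 11 pairs among cytosines listed in either replicate, but only 3 within each library alone. Of the 11 pairs, 7 shared the context. Of the known bases 32 of 37 were equal (86.5%), and 21 of 26 without those called at both ends. It also had 7 pairs at 58 bp. On chromosome 2, among distances with at least 5 pairs, the highest ratio to the surroundings was 5.88, at 174 bp, from 5 pairs of which 0 shared the context. A further 8 pairs lay 121 bp apart, 3 of them within replicate 1 alone and 5 within replicate 2 alone, and 5 of the 8 shared the context. On chromosome 15 no distance stood out in this way: the highest ratio to the surroundings was 2.44, at 169 bp, from 5 pairs of which 0 shared the context.

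**Figure D4:**
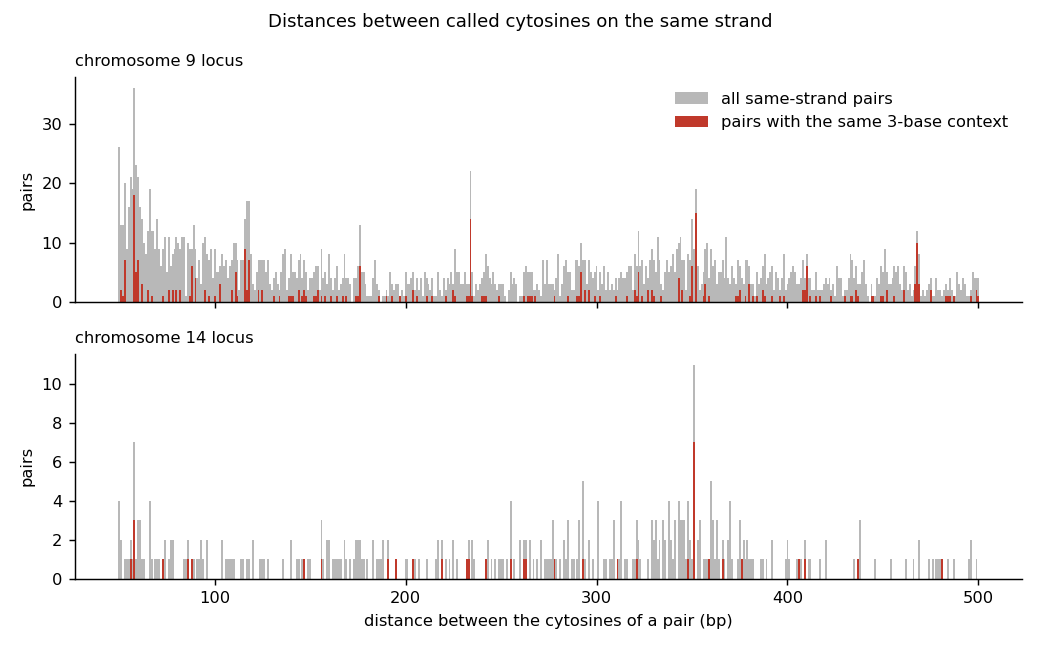
Number of same-strand pairs of called cytosines (vertical axis) at each distance from 50 to 500 bp, for cytosines listed in either replicate at the chromosome 9 locus (top) and the chromosome 14 locus (bottom). Grey bars count all pairs and red bars pairs with the same 3-base context. Chromosome 9 shows bars at 58, 234, 352 and 468 bp and chromosome 14 at 351 bp, and most pairs there share the context at 234, 352, 468 and 351 bp.

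The libraries listed 191 of these cytosines in common, 43.3% of replicate 1 and 53.8% of replicate 2. On chromosome 15 the shares were 64% and 82.1%, on chromosome 2 64.9% and 53.3%, on chromosome 14 45.3% and 48%, and on chromosome 9 36.9% and 50.2%. Outside the loci they were 40.4% and 38.7%. In replicate 1, of the 40 calls with 90 to 99 reads that lost the C, 8 (20%, 10.5 to 34.8) were also listed in replicate 2. In replicate 2, 35 of 50 such calls (70%, 56.2 to 80.9) were also listed in replicate 1. At shared cytosines the depth was higher in replicate 2 at 156 of 191, and the median ratio over the 191 was 1.11. Outside the loci the depth was higher at 1583 of 11351, with a median ratio of 1. The part of the upper edge in which calls are shared was not tested.

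Identical read counts in both libraries were rarer in the loci than outside. Both counts were identical at 2 of 191 shared cytosines (1.05%, 0.288 to 3.74), both on chromosome 9, against 8145 of 11351 (71.8%) outside. Where either library had at least 50 reads, they were identical at 1 of 151 in the loci and at 142 of 675 (21.0%) outside. Per degree of freedom, the chi-square between the libraries' counts was 0.761 on chromosome 9, 0.752 on chromosome 2, 0.883 on chromosome 14 and 0.176 on chromosome 15, against 0.0503 outside. A value near 1 is that of independent counts, and values under 1 can also arise because a cytosine must be called in both libraries to enter. Chromosome 15 differed between libraries by less than sampling noise, as did the cytosines outside, so the libraries count there as 1 sample, and values are given for each library with no SD. An SD of the libraries is used only in the closing section, as a tolerance.

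Across shared cytosines, which are not independent replicates and share reads, Pearson's r of the levels was 0.616 on chromosome 9 (n = 111), 0.131 on chromosome 2 (n = 24), 0.771 on chromosome 14 (n = 24) and 0.924 on chromosome 15 (n = 32). The median absolute difference was 3.48, 3.43, 3.66 and 2.35 points in the same order. The level was lower in replicate 2 at 121 of the 191 and higher at 67. Outside the loci it was lower at 1591 of 11351 and higher at 1453. Fisher's exact test per cytosine, two-sided and with Benjamini-Hochberg adjustment over all 11542 shared cytosines, found 0 of the 191 to differ, where 0.026% of all those tested were called. At an unadjusted p under 0.05 there were 5 of 191, where 0.234% of all those tested passed. The test assumes independent counts, which those outside the loci were not, so the background share is not that of independent libraries.

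**Figure D5:**
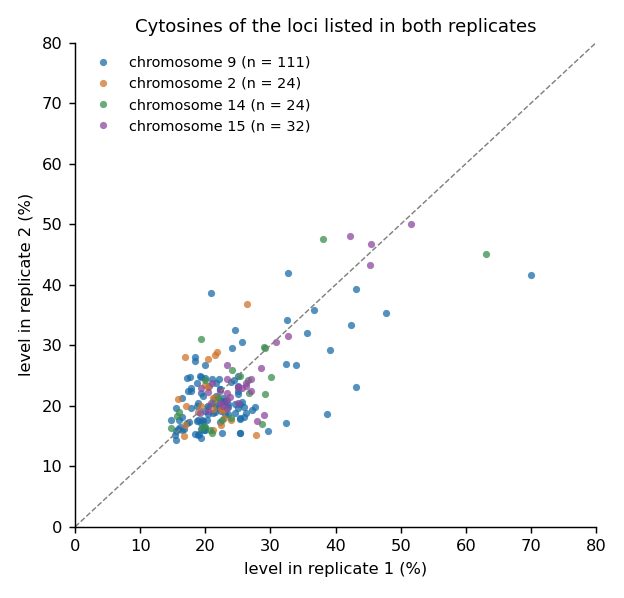
Level in replicate 2 against level in replicate 1, in percent, for the 191 cytosines of the loci listed in both, coloured by chromosome, with the line of equal levels dashed. Most points lie between 15% and 30% on both axes, and those of chromosome 15 keep closest to the line.

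On chromosomes 9, 14 and 15 a few cytosines with higher levels were listed in both libraries. On chromosome 9, the minus-strand CG at position 3024588 kept the C in 28 of 40 reads in replicate 1 (70%, 54.6 to 81.9) and in 47 of 113 in replicate 2 (41.6%, 32.9 to 50.8). It had the lowest p of the loci, which did not pass adjustment (Fisher's exact test, p = 0.00298, adjusted p = 1). On chromosome 14, 2 minus-strand cytosines 3 bp apart led. The CG at position 19417905 kept the C in 24 of 38 reads (63.2%) and 46 of 102 (45.1%). The CHH cytosine at position 19417902 kept it in 38 of 100 (38%) and 40 of 84 (47.6%). On chromosome 15 the minus-strand CHG at position 75086828 was at 51.6% (32 of 62 reads) and 50% (29 of 58), and the plus-strand CHG at position 75086626 at 45.5% (20 of 44) and 46.7% (21 of 45). On chromosome 2 the highest was lower, at position 98662229, with 26.5% (9 of 34 reads, 14.6 to 43.1) and 36.7% (36 of 98, 27.9 to 46.6). In replicate 1 its interval held the locus median of 21.1%. The second-highest were position 3004573 on chromosome 9, a CHH cytosine at 43.2% and 39.2%, and position 98666438 on chromosome 2, a CHG cytosine at 21.7% and 28.8%. The intervals of this chromosome 2 cytosine (12.3 to 35.6 and 18.3 to 42.3) held the locus medians of 21.1% and 19.3%.

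The deepest shared cytosines covered a wide range of levels. On chromosome 9 the deepest, a minus-strand CHG at position 3004629, kept the C in 41 of 115 reads (35.7%) and 43 of 134 (32.1%). The next, at position 3020912, kept it in 21 of 111 (18.9%) and 24 of 117 (20.5%). On chromosome 14 the deepest was the plus-strand CG at position 19417320, with 34 of 128 reads (26.6%) and 31 of 128 (24.2%), followed by the CG at position 19416954 with 24.1% and 26.0%. On chromosome 2 the minus-strand CHG at position 98662966 stood at 27.8% (37 of 133 reads) and 15.2% (17 of 112), and position 98662792 at 16.8% in both. On chromosome 15 the minus-strand CHH at position 75086794 stood at 42.2% (38 of 90) and 48.1% (38 of 79), and position 75086783 at 30.9% and 30.6%. The deepest shared CG cytosines of the other loci were at 25.9% and 19.8% on chromosome 9 (position 3002155), 16.7% and 14.95% on chromosome 2 (position 98662795), and 27.9% and 17.5% on chromosome 15 (position 75086767).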

How the data were processed

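The authors deposited, for each called cytosine, 2 raw read counts (C kept and C lost), their sum, a p-value with Holm and Benjamini-Hochberg values, and the 3-base context, per the file headers. Bismark 0.23.1, Bowtie2 2.4.5, FastQC 0.11.9, SAMtools, cutadapt 4.1 and the build mm10 are named, without their roles, per the submitters' processing notes. Every listed cytosine had at least 30 reads and an adjusted p-value under 0.05, so low levels are left out. The sources used here do not give whether duplicate reads were removed.

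Rows inside the 4 loci were taken from both files, in any context and strand. Level is kept reads over depth, with 95% Wilson intervals. Cytosines were matched by chromosome, position and strand. Pair distances counted same-strand pairs within a locus. The Fisher test and the distance search were run on simulated data, with independent counts and with positions on an exact repeat. The search was run there at exact distances. Shared cytosines outside the loci did not have independent counts, so these runs check the code and not its use here. Genes came from RefSeq GRCm38.p6. The loci, lists and tests were chosen with earlier results of these data known. Cytosines named one by one were, per locus, the 2 deepest and the 2 with the highest lower level among those shared, the deepest shared CG, and CpGs called on both strands. Named genes were the nearest protein-coding ones and those overlapping. The tools were scipy 1.17.1, numpy 2.4.6, matplotlib 3.10.9 and pandas 2.3.3 under Python 3.11.15. Alternatives are given in the closing section.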

Additional observations from a re-analysis of the deposited data

How the results depend on the processing

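Values here are means of both replicates, except the repeat distance, found among cytosines listed in either, and the count of differing cytosines. Of 51 alternatives, 34 left a value within the SD of the replicates or within 1.5 times of a count, and 17 moved it. The SD rests on 2 libraries and serves only as a tolerance, so these labels do not measure how firm a result is. It was 0.369 points for the median level and 6.77 points for the plus-strand share. Leaving out a replicate cannot move such a mean beyond the SD of its 2 values. No paired analysis was possible because the libraries form 1 group. The CG share (19.4%) and the plus-strand share (58.0%) were not moved by any alternative, within an SD of 2.43 and 6.77 points. The plus-strand share joins unlike loci, from 82% and 74.4% on chromosome 15 to 43.2% and 35.6% on chromosome 2. The number of calls (398) was 242 at a level of at least 20% and 137 without chromosome 9. The median level (21.0%) was 22.7% at an adjusted p under 0.01, 19.8% at a depth of at least 50, 23.7% at a level of at least 20% and 21.5% without chromosome 9, and 21.4% with under 90 reads that lost the C. Thresholds on p, depth and level move it by construction. The share with another call within 100 bp (94.9%) was 90.6%, 92.6%, 89.3% and 96.4% under the same first 4 settings. The share listed in both replicates (48.6%) was 39.2% at an adjusted p under 0.01, 38.6% at a level of at least 20% and 58.4% without chromosome 9. The distance with the most pairs within 2 bp was 58 bp, and 57 to 58 bp with a replicate left out. Taken as the highest ratio to nearby distances it was 234 bp. At an unadjusted p under 0.05, 5 cytosines differed by Fisher's exact test, against 0 adjusted, also among the 130 with at least 50 reads in both. The limit on reads that lost the C and the ratio to nearby distances were added after the data were seen.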
